A study of Oryza sativa with 8 samples.

Results

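Metallothioneins are small, cysteine-rich proteins that bind copper, zinc and cadmium through the sulfur of their cysteines. In plants they buffer copper and zinc inside cells and can react with hydroxyl radicals, and they are sorted into types 1 to 4 by the spacing of the cysteines. In Arabidopsis, transcripts of type 1 are abundant in roots, those of types 2 and 3 in leaves, and those of type 4 in seeds. The rice genes were chosen by annotation. A gene was taken where its description or its Swiss-Prot best match named a metallothionein and its level reached 1 TPM (a transcript abundance scaled for gene length and for the library total) in at least 2 of 8 libraries. Of 57403 genes in the matrix, 15 carried the annotation and 12 of these met the level, among 25281 genes tested. The family was taken up because MT3B was already known, from these same libraries, to be lower in treated wild-type seedlings. Every value of MT3B that uses treated ZH11 is therefore given as a description. Intervals, p-values and calls printed for such values are not read as tests.

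The libraries came from whole rice seedlings grown for 2 weeks in hydroponic medium, with 20 plants pooled per library. ZH11 is the wild type. OE1 is a single transgenic line that overexpresses ScOYE3, a yeast old yellow enzyme, which is a flavin-containing NADPH oxidoreductase. The promoter of the transgene is not given in the sources used here. Seedlings of each genotype were left untreated or were exposed to 0.8 mM 2-nitroaniline, an aromatic amine with a nitro group, for 8 h, and each of the 4 groups had 2 libraries. The design asks how wild-type and transgenic seedlings answer the chemical. Nothing in the labels says that the libraries of a group came from separate experiments, so each p-value reflects the spread between libraries alone, and that spread may be technical.

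Depth ran from 42137208 to 56535764 reads per library. Replicate 2 of treated ZH11 stood apart from the other 7 libraries. It had the lowest share of G and C bases, 52.0% against 53.5 to 55.4%, and low values for short genes. The median gene of 501 to 1000 nt deviated there by -0.42 in log2 from its mean over the 8 libraries, while the median gene over 5000 nt deviated by 0.91. Replicate 2 of both ZH11 groups had longer reads, 149.1 and 149.8 nt on average, than the other 6 libraries, which ran from 145.0 to 146.9 nt. The metallothionein genes are short, and 10 of the 12 measured 890 nt or less, so the main results are given with and without this gradient. The shoot markers gave a summed 33001 to 42014 TPM and the root markers 448 to 758 TPM. The root iron transporter IRT1 was at 0.31 to 1.13 TPM, and none of the 12 markers was at 0.

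The 12 genes fell into 4 named types by their Swiss-Prot best match. Type 3 held MT3A (LOC_Os01g10400, chromosome 1) and MT3B (LOC_Os05g11320, chromosome 5). Type 2 held MT2A (LOC_Os01g05650) and MT2B (LOC_Os01g74300) on chromosome 1 and MT2C (LOC_Os05g02070) on chromosome 5. Type 1 held MT1A (LOC_Os11g47809, chromosome 11) and MT1B (LOC_Os03g17870, chromosome 3). The Swiss-Prot name MT4 covered MT4A (LOC_Os12g38270), MT4B (LOC_Os12g38051) and a pair of MT4C matches (LOC_Os12g38010 and LOC_Os12g38300), all on chromosome 12. These MT4 genes carry the same Pfam family as the type 1 genes, which MT2A and MT2B carry too. None of them carries the plant PEC family of seed metallothioneins. That family is annotated for MT2A and for the 3 genes left out by level, among them LOC_Os12g38290, an MT4C match. The number 4 is therefore used as a name here, and no seed type is read from it. Reads may be split between the neighbouring MT4 copies, and the MT4C matches were therefore also summed. The last gene, LOC_Os12g38040, had no Swiss-Prot match, carried a zinc knuckle domain beside the metallothionein family, and lay just inside the level rule at 0.55 to 1.09 TPM. The 3 annotated genes left out were LOC_Os12g38290, just outside the rule with a highest value of 1.40 TPM, LOC_Os10g39610 at up to 0.96 TPM, and LOC_Os01g05585, which was listed at 0 in all 8 libraries.

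Summed over the 12 genes, metallothionein transcripts made up a large share of the seedling transcriptome. The sum was 9415 and 10299 TPM in untreated ZH11, 10227 and 4529 TPM in treated ZH11, 8943 and 8944 TPM in untreated OE1, and 9427 and 10481 TPM in treated OE1. In 7 of the libraries this came to 0.894 to 1.05% of all TPM, and in replicate 2 of treated ZH11 to 0.453%. MT3A alone gave 46.7 to 64.4% of the family and ranked between 4 and 12 among all genes in 7 libraries, and 22 in replicate 2 of treated ZH11.

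**Figure D1:**
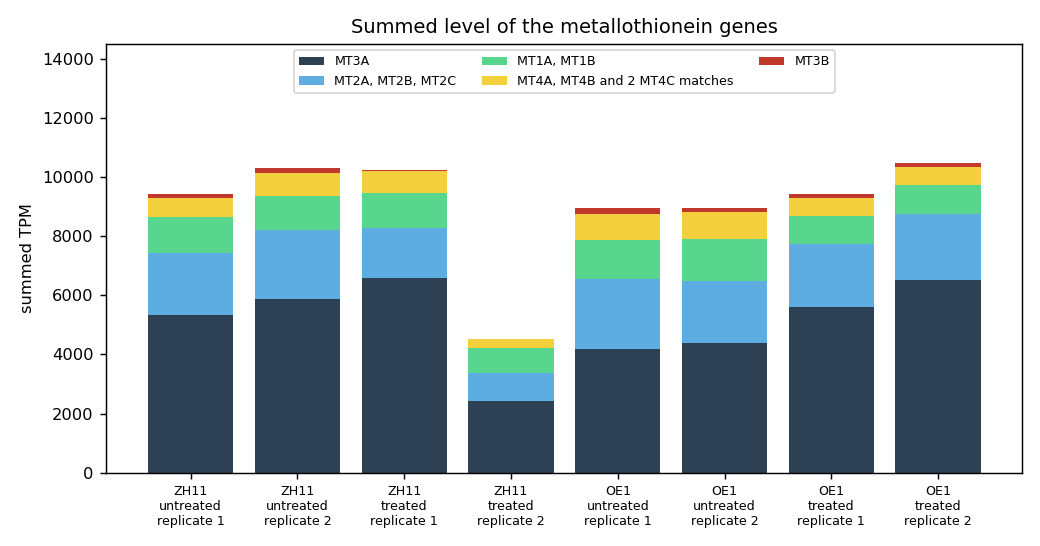
Summed level in TPM of the metallothionein genes in each of the 8 libraries, stacked by type. MT3A forms the largest block everywhere, 7 bars stand between 8943 and 10481 TPM, and replicate 2 of treated ZH11 stands at 4529 TPM.

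By mean TPM over the 8 libraries the order was MT3A (5108), MT1A (822), MT2C (770.3), MT2B (703), MT2A (521), MT1B (305), MT4C at LOC_Os12g38300 (277), MT4A (196), MT4B (118), MT3B (118), MT4C at LOC_Os12g38010 (93.1) and LOC_Os12g38040 (0.84). MT3A at its lowest, 2408 TPM, was above every other member at its highest, and LOC_Os12g38040 was below every other member. Between these ends, neighbours in the order overlapped in their range over the libraries. The type 3 genes thus held both the highest level and one of the lowest.

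**Figure D2:**
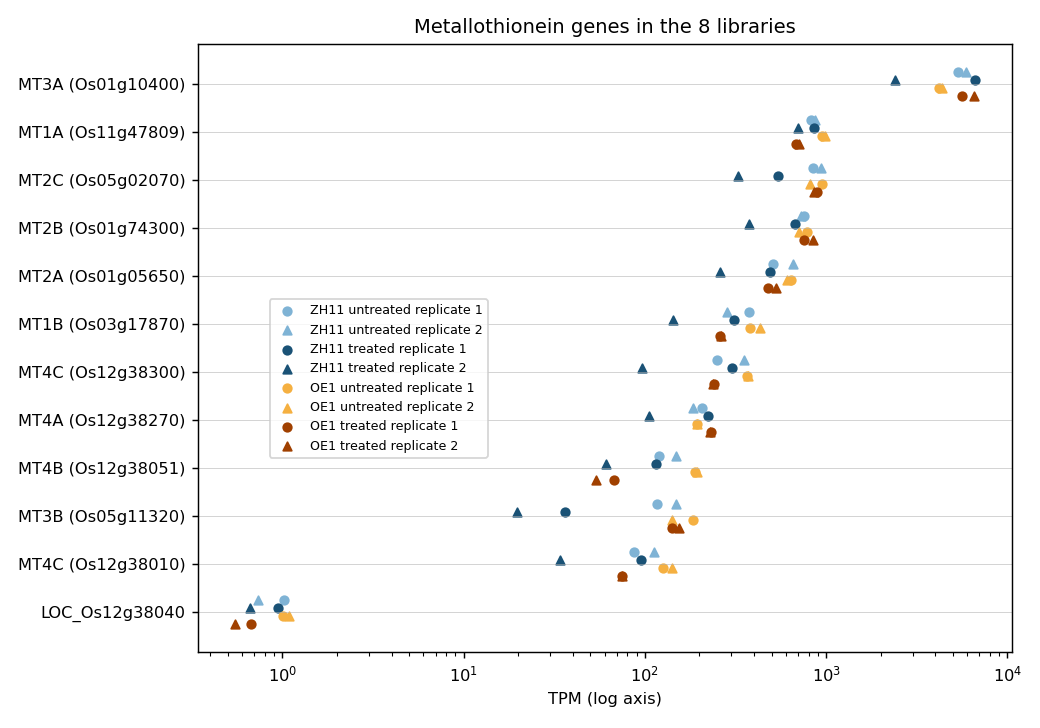
Level in TPM, on a log axis, of each of the 12 genes in each library, with genes ordered by their mean and labelled by Swiss-Prot match and LOC_Os number; circles are replicate 1 and triangles replicate 2. MT3B in treated ZH11 lies at 36.1 and 19.8 TPM, apart from the other 6 libraries at 117 TPM or more.

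MT3B was at 117 and 149 TPM in untreated ZH11 and at 36.1 and 19.8 TPM in treated ZH11. In OE1 it was at 185 and 141 TPM untreated and at 141 and 155 TPM treated. Both treated ZH11 libraries were below all 6 others, and the OE1 groups overlapped. Treated over untreated, the log2 fold of MT3B in ZH11 was -2.26 ± 0.28 (SE; limma on log2 of TPM + 1, 2 libraries against 2), a 4.80-fold lower level, with a 95% interval from -2.93 to -1.59. Set against the mean of untreated ZH11, the treated libraries differed by -1.84 and -2.68 in log2.

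Without replicate 2 of treated ZH11 the log2 fold of MT3B in ZH11 was -1.85, and with the length gradient removed from every library it was -2.08. Between the pair of shorter-read ZH11 libraries the difference was -1.67 and between the pair of longer-read ones -2.85, each with 1 library a side. MT3B lay past the limma threshold for a call in ZH11, but not in 12 of 22 alternatives, among them TMM rescaling, a fit of the ZH11 libraries alone and each fit that left out 1 of the 6 libraries other than treated ZH11.

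In OE1 the log2 fold of MT3B under 2-nitroaniline was -0.13 ± 0.28, with a 95% interval from -0.79 to 0.54 and a limma adjusted p of 1. Among untreated seedlings the genotypes differed by 0.29 ± 0.28, OE1 minus ZH11, with a 95% interval from -0.38 to 0.96. The values that use treated ZH11 follow from the ones MT3B was chosen for. Among treated seedlings the log2 difference, OE1 minus ZH11, was 2.42 ± 0.28, and 2.13 with the length gradient removed. The difference of the treatment effects, OE1 minus ZH11, was 2.14 ± 0.40 with a 95% interval from 1.19 to 3.08, and limma did not call it.

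The authors' deposited table gives MT3B a log2 fold of -2.14 for treated over untreated ZH11, and estimated counts of 667 and 638 untreated and 212 and 73 treated. For treated OE1 over treated ZH11 the authors' deposited table gives 2.44, and estimated counts of 796 and 1026 in treated OE1.

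**Figure D3:**
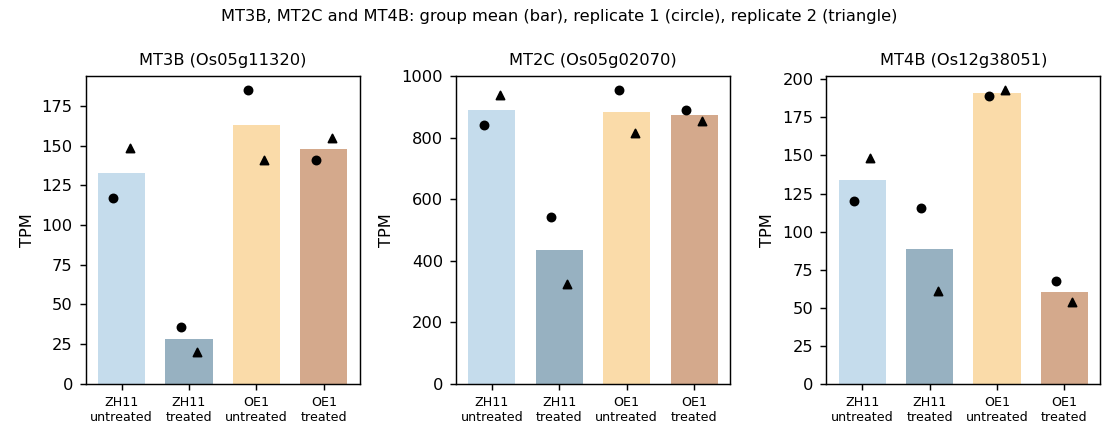
TPM of MT3B, MT2C and MT4B in the 4 groups; bars are group means of 2 libraries, circles replicate 1 and triangles replicate 2. MT3B and MT2C are lowest in treated ZH11, and MT4B is lowest in treated OE1 with a mean of 60.5 TPM.

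MT3A, the most abundant member, was at 5329 and 5874 TPM in untreated ZH11 and at 6583 and 2408 TPM in treated ZH11. It was at 4173 and 4369.6 TPM in untreated OE1 and at 5602 and 6528 TPM in OE1 after treatment. The treated ZH11 libraries lay on either side of the untreated ones, whereas in OE1 both treated libraries were above both untreated ones. The log2 fold was -0.49 ± 0.41 in ZH11 (limma adjusted p = 0.602) and 0.50 ± 0.41 in OE1 (limma adjusted p = 0.92), and neither passed. Over the 8 libraries the Pearson correlation of log2 (TPM + 1) between MT3A and MT3B, both type 3 by name, was 0.509 as deposited and 0.355 with the length gradient removed.

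The type 2 genes were lower in both treated ZH11 libraries than in both untreated ones. MT2C was at 842 and 939 TPM in untreated ZH11 and at 543 and 325 TPM in treated ZH11, against 954 and 814 TPM in untreated and 889.7 and 855 TPM in treated OE1. Its treated ZH11 libraries were below all 6 others, as for MT3B. Its log2 fold in ZH11, -1.08 ± 0.24, did not pass (limma adjusted p = 0.15), although its 95% interval ran from -1.64 to -0.52, and in OE1 the log2 fold was -0.01 ± 0.24. Against the mean of untreated ZH11, replicate 1 of treated ZH11 differed by -0.71 in log2 and replicate 2 by -1.45. The difference of the treatment effects was 1.07 ± 0.34 (limma adjusted p = 0.612).

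MT2A was at 509.9 and 657 TPM in untreated and 489 and 259.6 TPM in treated ZH11, and at 643 and 605 TPM in untreated and 476 and 531 TPM in treated OE1. MT2B was at 753 and 730.4 TPM in untreated and 672 and 376 TPM in treated ZH11, and at 780.2 and 706 TPM in untreated and 758 and 846 TPM in treated OE1. For both genes, replicate 1 of treated ZH11 was only a little below the untreated libraries and replicate 2 far below. The log2 folds in ZH11 were -0.70 ± 0.29 for MT2A and -0.56 ± 0.26 for MT2B, and neither passed in limma (adjusted p = 0.387 and 0.419).

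Among the genes named MT1 and MT4, MT4B had the largest log2 fold in size in OE1. MT4B was at 119.9 and 148.2 TPM in untreated and 115.5 and 60.9 TPM in treated ZH11, and at 189 and 193 TPM in untreated and 67.5 and 53.4 TPM in treated OE1. In OE1 its groups were far apart relative to the gap between replicates. The log2 fold of MT4B in OE1 was -1.65 ± 0.29, a 3.14-fold lower level with a 95% interval from -2.33 to -0.97, and it did not pass (limma adjusted p = 0.0855). It passed in 6 of 22 alternatives, which were the length gradient removed (limma adjusted p = 0.0267), a term for read length (0.0422), only the OE1 libraries (0.00244), weights by library spread (0.000397) and the fits without either treated ZH11 library (0.00404 and 0.00428). It did not pass in the other 16, among them TMM rescaling (limma adjusted p = 0.147), the length gradient removed with a replicate block (0.0554) and the fits without 1 OE1 library (0.419 to 0.68). The authors' deposited table lists MT4B as called in OE1, with a log2 fold of -1.65, an adjusted p of 3.02e-22 and estimated counts of 1140 and 1189.8 untreated and 366 and 341 treated. In ZH11 the log2 fold of MT4B was -0.66 ± 0.29 (limma adjusted p = 0.407), and the difference of the treatment effects was -0.99 ± 0.41 (limma adjusted p = 0.758).

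MT1A was at 826 and 866 TPM in untreated and 858 and 699.6 TPM in treated ZH11, and at 951 and 981 TPM in untreated and 686 and 710.5 TPM in treated OE1. MT1B was at 373 and 285 TPM in untreated and 309 and 143 TPM in treated ZH11, and at 382 and 432 TPM in untreated and 259 and 261 TPM in treated OE1. The MT4C matches summed to 338 and 464 TPM in untreated and 396 and 131 TPM in treated ZH11, and to 493 and 509 TPM in untreated and 315 and 313 TPM in treated OE1. In OE1 the groups of each were apart, and in ZH11 they overlapped. The log2 folds in OE1 were -0.47 ± 0.15 for MT1A, -0.64 ± 0.33 for MT1B, -0.82 ± 0.41 for LOC_Os12g38010 and -0.62 ± 0.46 for LOC_Os12g38300, and none passed in limma (adjusted p from 0.317 to 0.883). In ZH11 they were -0.13 ± 0.15, -0.63 ± 0.33, -0.79 ± 0.41 and -0.79 ± 0.46 in the same order, and limma called no difference of the treatment effects.

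MT4A, although it lies in the same chromosome 12 cluster, stood on the other side of untreated OE1. It was at 206 and 185 TPM in untreated and 223 and 106 TPM in treated ZH11, and at 194 and 193 TPM in untreated and 233 and 228 TPM in treated OE1. Its log2 fold in OE1 was 0.25 ± 0.31 (limma adjusted p = 1). Over the 8 libraries, as a description, the Pearson correlation of MT4A was 0.927 with MT2B and 0.916 with MT3A as deposited, and 0.795 and 0.916 with the length gradient removed.

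The summed level of MT1A, MT1B, MT4B and both MT4C matches in OE1 was 2014 and 2115 TPM untreated and 1327 and 1338 TPM treated. These genes were put together for being lower in treated OE1, so the fall of their sum comes with the choice. MT4A, at 194 and 193 TPM in untreated and 233 and 228 TPM in treated OE1, is not in the sum. The 6 root markers summed to 758 and 754 TPM in untreated and 623 and 538 TPM in treated OE1, and to 531 and 505 TPM in untreated ZH11. The sum was carried by the silicon transporters LSI1, at 363 and 378 TPM in untreated and 270.1 and 229 TPM in treated OE1, and LSI2, at 191 and 188 against 107 and 98.3 TPM. The root markers did not all go one way, since RCc3 was at 172 and 154 TPM in untreated and 225 and 193 TPM in treated OE1, and IRT1 at 0.66 and 0.75 against 1.13 and 1.13 TPM. The summed shoot markers in OE1 were 42014 and 41282 TPM untreated, and 33001 and 33487 TPM after treatment. The part of root and shoot in these differences was not tested. In whole-plant RNA, fewer cells of a type and less RNA per cell cannot be told apart.

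Counted over the family, 1 of the 12 genes was called in ZH11, MT3B, lower, where 0.289% of all genes tested were called by limma (adjusted p under 0.05 and a log2 fold of 1 or more in size). The contrast served to choose MT3B, so nothing is read from that share. In OE1 none of the 12 was called by limma, against 0.241% of all genes. An unadjusted p under 0.05 was reached by 2 of the 12 in OE1, 16.7% against 9.44% of all genes. For treatment averaged over both genotypes 1 was called, MT3B (-1.19 ± 0.20), where 0.542% of all genes were. Treated ZH11 enters this mean, so nothing is read from that share either. MT4B was not called there (-1.16 ± 0.21, limma adjusted p = 0.0531). By group, MT3B was lowest in treated ZH11 and MT4B in treated OE1. For genotype, none of the 12 was called by limma in untreated seedlings, against 0.443% of all genes, and none had an unadjusted p under 0.05, against 4.94% of all genes. In treated seedlings 1 was called, MT3B, where 0.953% of all genes were, again with nothing read from it. For the difference of the treatment effects none was called by limma, against 0.0316% of all genes. An unadjusted p under 0.05 was reached there by 3 of the 12, MT3B among them, against 6.45% of all genes.

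As deposited, all 12 log2 folds were below 0 in ZH11, against 12024 of the 25281 genes tested. The median of the 12 was -0.65 where the median of all genes was 0.02. In OE1, 9 of 12 were below 0, against 14279 of the 25281 genes tested. The median of the 12 was -0.33 there where that of all genes was -0.04. With the length gradient removed the medians of the 12 were -0.48 in ZH11 and -0.31 in OE1, and MT1A stood above 0 in ZH11, at 0.07. In ZH11, 5 of the 12 were lower without overlap, namely MT2A, MT2B, MT2C, MT3B and MT4B, which is 41.7% against 18.4% of all genes. MT3B was chosen for this contrast, so nothing is read from its place in the ZH11 counts. In OE1, 7 of the 12 were lower without overlap, namely MT1A, MT1B, MT2A, MT4B, both MT4C matches and LOC_Os12g38040, which is 58.3% against 28.6% of all genes. LOC_Os12g38040 reached 1 TPM in 3 libraries only, all of them untreated, so the level rule favoured its place in this count. MT3A and MT4A were higher in treated OE1 without overlap, 16.7% of the members against 23.8% of all genes.

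**Figure D4:**
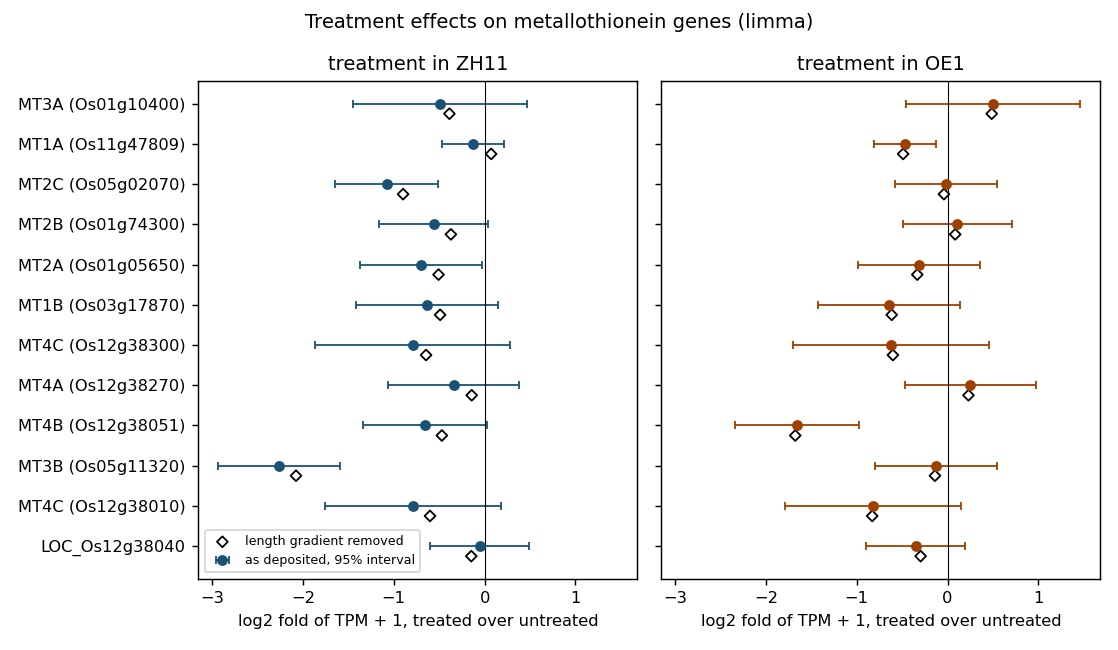
Log2 fold of treated over untreated TPM + 1 for each of the 12 genes in ZH11 and in OE1; filled points with bars are the limma estimate and its 95% interval, open diamonds the estimate with the length gradient removed. MT3B stands at -2.26 in ZH11 and -0.13 in OE1, and MT4B at -0.66 and -1.65.

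Much of the ZH11 pattern across the family lay in 1 library. As deposited, all 12 genes in replicate 2 of treated ZH11 were below both untreated ZH11 libraries, where 35% of all genes were. In replicate 1 of treated ZH11, 5 were below and 2 above, where 41.3% and 27.7% of all genes were. MT3B, chosen for its level in treated ZH11, is among those below in both libraries. The median member deviated from its mean over the 8 libraries by -0.99 in replicate 2 and by 0.09 in replicate 1. Removing the length gradient brought the first of these to -0.54, so that the median member remained below genes of its own length. MT1A then deviated by 0.18 in replicate 2, above untreated ZH11 at -0.04 and 0.12. Without replicate 1 of treated ZH11, 8 of the 12 were called in ZH11, a fit in which 10.4% of all genes were called. Without replicate 2 of treated ZH11 only MT3B was, where 0.676% of all genes were called. The lower G and C share and the low values of short genes in that library went with the low family sum, and their part in it beyond the fitted length gradient was not tested.

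**Figure D5:**
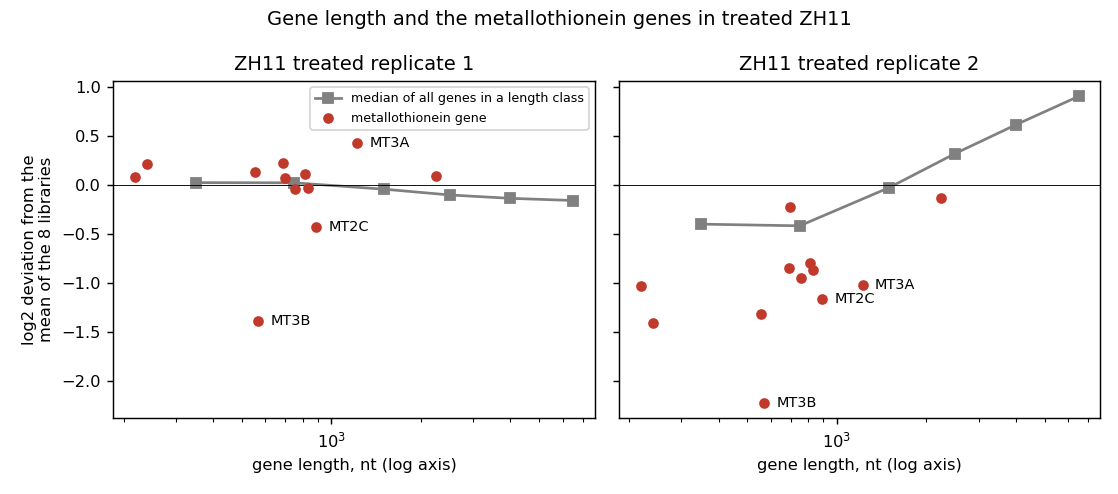
Deviation of log2 (TPM + 1) from its mean over the 8 libraries against gene length in nt (log axis) in the treated ZH11 libraries; grey squares are the median of all genes tested in 6 length classes and red points the 12 metallothionein genes. In replicate 1 the members sit around 0 apart from MT3B and MT2C below and MT3A above, and in replicate 2 they sit below 0 with a median of -0.99.

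Among untreated seedlings, 5 of the 12 were higher in OE1 than in ZH11 without overlap as deposited, which is 41.7% against 21.7% of all genes. They were MT1A, MT1B, MT4B and both MT4C matches. With the length gradient removed the genotypes overlapped for MT1B and LOC_Os12g38300, so the count of 5 does not hold there. MT1B then deviated by 0.29 and 0.18 in ZH11 and by 0.26 and 0.37 in OE1. LOC_Os12g38300 deviated by -0.11 and 0.64 in ZH11 and by 0.39 and 0.33 in OE1. MT3A lay the other way, at 4173 and 4369.6 TPM in untreated OE1 against 5329 and 5874 TPM in untreated ZH11. These 5 are also among the 7 that were lower in treated than in untreated OE1, and both comparisons use the untreated OE1 libraries. The summed root markers, carried by LSI1 and LSI2, were also highest in untreated OE1, whereas RCc3 and IRT1 were not, and the part of root tissue in this was not tested. Among treated seedlings, 4 of the 12 were higher in OE1 without overlap as deposited, namely MT2B, MT2C, MT3B and MT4A, which is 33.3% against 23.0% of all genes. With the length gradient removed the genotypes overlapped for MT4A, which deviated by 0.20 and -0.44 in treated ZH11 and by 0.22 and 0.12 in treated OE1. MT3B was chosen for its level in treated ZH11, so nothing is read from its place in this count.

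The other genes of metal handling were taken as 11 lists by protein domain, with 128 genes tested. Apart from the ferritins, the lists were P1B-type ATPases (7 tested), proteins with a heavy-metal-associated domain but no annotated ATPase domain (58), ZIP transporters (17), CTR copper transporters (4), cation diffusion facilitators (10), proteins with the NRAMP domain (10), VIT-type transporters (5), nicotianamine synthases (3), copper/zinc superoxide dismutases (6) and genes of phytochelatin and glutathione synthesis (7), with 1 gene in a pair of lists. By annotation, 1 of the 58 is an ATPase, matching HMA2, and 2 of the 10 with the NRAMP domain match EIN2, a protein of ethylene signalling. In these 10 lists limma called no gene in any of the 6 comparisons, where 0.0316 to 0.953% of all genes were called. With shares this low, nothing is read from the absence of calls. Genes with an unadjusted limma p under 0.05 numbered 27 in ZH11, 21.3% against 12.7% of all genes, and 11 in OE1, 8.66% against 9.44%. The median log2 folds of these lists in ZH11 ran from -0.38 for VIT-type transporters to 0.46 for CTR copper transporters, and with the length gradient removed from -0.23 to 0.65 for the same lists. The list of copper/zinc superoxide dismutases, enzymes that remove superoxide, had a median of -0.25 in ZH11 and -0.03 in OE1, and of -0.12 and -0.05 with the length gradient removed. This list also holds LOC_Os04g48410, described as a copper chaperone for the enzyme.

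The ferritins, which store iron in plastids, were the only list with a called gene, and both tested genes match ferritin 1. LOC_Os12g01530 was at 71.7 and 72.2 TPM in untreated and 150.4 and 142 TPM in treated ZH11, and at 75.7 and 77.1 TPM in untreated and 152 and 133 TPM in treated OE1. LOC_Os11g01530 was at 102 and 93.5 TPM in untreated and 247 and 183 TPM in treated ZH11, and at 121 and 119 TPM in untreated and 263 and 233 TPM in treated OE1. Every treated library was above every untreated one for both genes. In OE1 alone 23.8% of all genes were higher without overlap, and the share over both genotypes together was not counted. LOC_Os12g01530 was called in ZH11, at 1.01 ± 0.13 (limma adjusted p = 0.0358), just over the fold threshold. In the mean over both genotypes it was just under that threshold, at 0.95 ± 0.09 (limma adjusted p = 0.00805). LOC_Os11g01530 was not called in ZH11, at 1.11 ± 0.17 (limma adjusted p = 0.0659). It was called in the mean over both genotypes, at 1.08 ± 0.12 (limma adjusted p = 0.0136). In OE1 the log2 folds were 0.89 ± 0.13 and 1.04 ± 0.17 (limma adjusted p = 0.0557 and 0.0741). The ZH11 call ended in 17 of 22 alternatives, with log2 folds from 0.97 to 1.05, and the mean call in 7 of 21, all of them fits that left out a library. The near-identical copies may share reads.

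The genes whose levels followed MT3B most closely over the 8 libraries were found by Pearson correlation of log2 (TPM + 1), among genes of at least 5 TPM on average with a Swiss-Prot symbol. They were LOC_Os03g05710, matching an Arabidopsis NATA1-like acetyltransferase (0.981), LOC_Os03g02780, a histone H4 (0.981), LOC_Os04g57420, a reticulon-like protein (0.98), LOC_Os04g50990, ribosomal protein L12 (0.977), and MT2C (0.976). The histone H4 gene was at 82.4 and 91.0 TPM in untreated and 41.7 and 20.3 TPM in treated ZH11, and at 92.5 and 91.0 TPM in untreated and 87.2 and 84.4 TPM in treated OE1. In each of these 5 genes both treated ZH11 libraries were below all 6 others. The genes were picked for following MT3B, so this shared pattern comes with the choice and nothing is read from it. The correlations describe 8 libraries in 4 groups, and with the length gradient removed that of MT3B with MT2C was 0.973.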

How the data were processed

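RNA was sequenced from 8 whole-plant libraries. The authors' deposited matrix gave TPM per gene and library, and their deposited tables of called genes gave estimated counts, log2 fold changes and p-values, used only where named. A deposited table of reads gave counts of reads and bases and the percent of G and C, per the file headers. Cufflinks 2.2.1 is listed, without its role, in the submitters' processing notes; the aligner, counter, counting strand and genome build are not given in the sources used here. A single line (1) of the TPM matrix was empty. Genes at 1 TPM or more in at least 2 libraries were kept, 1 was added and log2 taken. Limma 3.58.1 (R 4.3.3) fitted 4 group means over the 8 libraries with an eBayes trend, after a check on simulated data. A call needed a Benjamini-Hochberg adjusted p under 0.05 over all genes and a log2 fold of 1 or more in size; with 1 added, folds of low genes are understated. The length gradient was removed per library with a loess curve of log2 deviation on the logarithm of gene length. TMM factors came from edgeR 4.0.16. Named genes were every member, called metal-list genes and the 5 genes most like MT3B. The members and lists were chosen with earlier results of these data known. No sequence is shown, since the tables used here hold none for these genes.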

Additional observations from a re-analysis of the deposited data

How the results depend on the processing

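No result reversed its sign under any alternative while called. Of 1554 values of the 12 genes under alternatives, 1492 kept their side of the threshold, 29 lost a call and 33 gained one; with all libraries kept, only MT3B and MT4B changed. The count in ZH11, 1, became 0 with TMM or median-of-ratios rescaling, no filter on low values, only the 4 libraries compared, a replicate block, or weights by library spread, and ran from 0 to 8 with 1 library left out. In OE1 it went from 0 to 1 with only the 4 libraries compared, the length gradient removed, a read-length term, or weights, and ran from 0 to 1 with 1 library left out. In the mean over genotypes it went from 1 to 0 with either rescaling, a pseudocount of 0.1, no filter, no trend or a replicate block, and to 2 with a pseudocount of 5, a floor of 5 TPM, the length gradient removed with or without the block, a read-length term, or weights, and ran from 0 to 4 with 1 library left out. Among treated seedlings the genotype count went from 1 to 0 with only the 4 libraries compared or weights, and ran from 0 to 7 with 1 library left out; the count for the difference, 0, ran from 0 to 5. In the metal lists, the ZH11 count went from 1 to 0 with either rescaling, a pseudocount of 5, no filter, only the 4 libraries, no trend, the block or weights, and to 4 with a read-length term. The OE1 count went from 0 to 2 with only the 4 libraries or weights, and to 1 with the length gradient removed, with or without the block, or a read-length term. The mean count went from 1 to 3 with no fold threshold, and the genotype count among treated seedlings from 0 to 1 with either rescaling. With 1 library left out the metal-list counts ran from 0 to 16 in ZH11, 0 to 1 in OE1, 0 to 4 in the mean, 0 to 18 for genotype in treated seedlings and 0 to 10 for the difference. The highest of these counts came without replicate 1 of treated ZH11, where of all genes tested 10.4% were called in ZH11, 2.03% in the mean, 15.2% for genotype in treated seedlings and 10.7% for the difference, against 12.5%, 3.12%, 14.1% and 7.81% of the metal-list genes. In OE1 the highest came without either treated ZH11 library, with 1.34 and 1.35% of all genes called and 0.781% of the metal-list genes. A fit without 1 library leaves a group with 1 sample, which is assumed to vary like the others. The replicate numbers pair no samples by the labels, and correlations of same-numbered deviations ran from -0.28 to 0.233; with the replicate block MT3B had a limma adjusted p of 0.0733 in ZH11 and 0.0881 in the mean. The cause of these changes was not tested.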
